A study of Mus musculus with 31 samples.

Results

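The 10 genes described here belong to the response of cells to low oxygen. They are *Hif1a* and *Epas1*, which encode alpha subunits of the hypoxia-inducible factors (HIFs), and the HIF targets *Vegfa*, *Slc2a1*, *Pgk1*, *Ldha*, *Egln3*, *Bnip3*, *Pdk1* and *Ndrg1*. They were chosen by name, with earlier results of these data known, out of 18193 genes with a probe set of their own on the array. All 27 probe sets annotated to them were taken, of 45037 probe sets on the Affymetrix mouse array without its controls, and 0 of the 27 were annotated to several genes. Expression was measured in 23 biological samples on 31 arrays, in 4 experiments that each set a mutant against WT. Hematopoietic stem cells of the fetal liver (FL HSCs), sorted as Sca-1+ Lin- AA4.1+ c-Kit++ cells, were compared between 2 *Crebbp*+/- and 2 WT samples, and between 2 *Ep300*+/- and 2 WT samples, all on C57BL/6 with WT littermates. FL HSCs were also compared between 4 *Cdkn1a*-/- and 3 WT samples on a B6/129Sv background. The nulls (B6;129S2-Cdkn1atm1Tyj/J) and their WT controls (B6129SF2) were separately purchased stocks, so stock and genotype cannot be told apart. Mouse embryonic fibroblasts (MEFs), cultured from embryo bodies, were compared between 4 *Crebbp*+/- and 4 WT C57BL/6 embryos, 1 of each genotype from each of 4 litters, also at 14.5 days. FL HSC samples pooled 15 embryos at 14.5 days post coitus, from livers frozen and thawed before the sort, and 12 ng of their RNA was amplified. The heterozygous and null alleles are carried by every cell of the embryo, so they are not confined to the cells studied.

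HIFs work as dimers of an oxygen-sensitive alpha subunit, HIF1A or EPAS1 (HIF2A), and the stable beta subunit ARNT. In the presence of oxygen, prolyl hydroxylases of the EGLN family mark the alpha subunit for ubiquitylation by the VHL complex. In low oxygen the subunit escapes, binds DNA and recruits the coactivators CREBBP (CBP) and EP300 (p300) through its transactivation domain. These are the proteins whose genes lack 1 allele in the heterozygous samples here. The alpha subunits are regulated mainly as proteins, so an mRNA level does not give the activity of the factor. Stem cells of the blood are known for a glycolytic metabolism in which HIF1A takes part. The oxygen in which cells were kept is not given in the sources used here.

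HIFs bind the core motif ACGTG or GCGTG of the hypoxia response element. The stretches below are shown because they hold these letters before the start of targets that were measured in the FL HSCs. They come from RefSeq promoters of the mouse build GRCm38.p6, which cover 250 bases before to 50 after the gene's first base, and capitals mark the core on either strand (ACGTG reads CACGT from the other strand, and GCGTG likewise reads CACGC). Where the letters are CACGTG, the first core lies on both strands and its 2 matches overlap.
Pgk1, chrX:106186930-106186993, + strand: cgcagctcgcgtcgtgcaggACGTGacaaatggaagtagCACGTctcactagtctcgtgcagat
Ldha, chr7:46845639-46845803, + strand: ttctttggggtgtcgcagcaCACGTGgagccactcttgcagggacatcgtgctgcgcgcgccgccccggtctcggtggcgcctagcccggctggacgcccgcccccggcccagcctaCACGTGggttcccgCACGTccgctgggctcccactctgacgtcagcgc
Slc2a1, chr4:119108664-119108733, + strand: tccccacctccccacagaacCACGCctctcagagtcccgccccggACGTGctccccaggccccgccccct
Bnip3, chr7:138909517-138909643, - strand: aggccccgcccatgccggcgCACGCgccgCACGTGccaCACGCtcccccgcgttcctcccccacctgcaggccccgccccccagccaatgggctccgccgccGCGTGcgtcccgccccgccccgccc
Egln3, chr12:54204079-54204123, - strand: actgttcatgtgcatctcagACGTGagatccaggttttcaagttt
In *Pgk1* the 2 cores start 150 and 131 bases before the gene, and in *Ldha* the 3 blocks of capitals start 145, 48 and 34 bases before it. The RefSeq table held promoters of 8 of the 10 genes (11 windows, since *Vegfa*, *Ldha* and *Pdk1* have more than 1), and *Epas1* and *Ndrg1* were not among them. ACGTG lay in a window of 7 of these 8 genes, the exception being *Pdk1*, and either core in a window of all 8. Counted by window, 7 of the 11 held ACGTG and 9 held either core. Of all 32851 windows in the table, 19.6% held ACGTG and 43.8% held either core on either strand. A match is a description of the letters and shows no binding, and the arrays do not measure which factor acts on a promoter.

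Which members could be measured differed between the experiments, also between those on FL HSCs. The level of a probe set is the log2 value from GCRMA, normalized separately in each experiment, so levels are set side by side only within an experiment and only for the same probe set. A probe set was tested where its highest sample reached log2(100), which is 6.64. In both the *Crebbp* and the *Ep300* FL HSC experiment 17 of the 27 member probe sets passed, covering 7 genes, and *Epas1*, *Vegfa* and *Ndrg1* stayed below this minimum at all of their probe sets. In the *Cdkn1a* FL HSC experiment 22 probe sets of all 10 genes passed. In MEFs 20 probe sets of 8 genes passed, and *Epas1* and *Egln3* stayed below it. Between 11199 and 12363 probe sets reached the minimum per array in the *Crebbp* and *Ep300* experiments, 18947 to 19522 in the *Cdkn1a* experiment and 14380 to 14684 in MEFs, so the number of members above the minimum went with the number of all probe sets above it. Markers of the labelled cells were present, since 6 to 7 of 7 stem cell markers reached the minimum in FL HSC samples and 2 to 3 in MEFs, while 8 of 8 fibroblast markers did so in MEFs and 0 to 2 in FL HSCs. In bulk samples such as these, fewer cells of a type and less RNA per cell cannot be told apart.

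**Figure D1:**
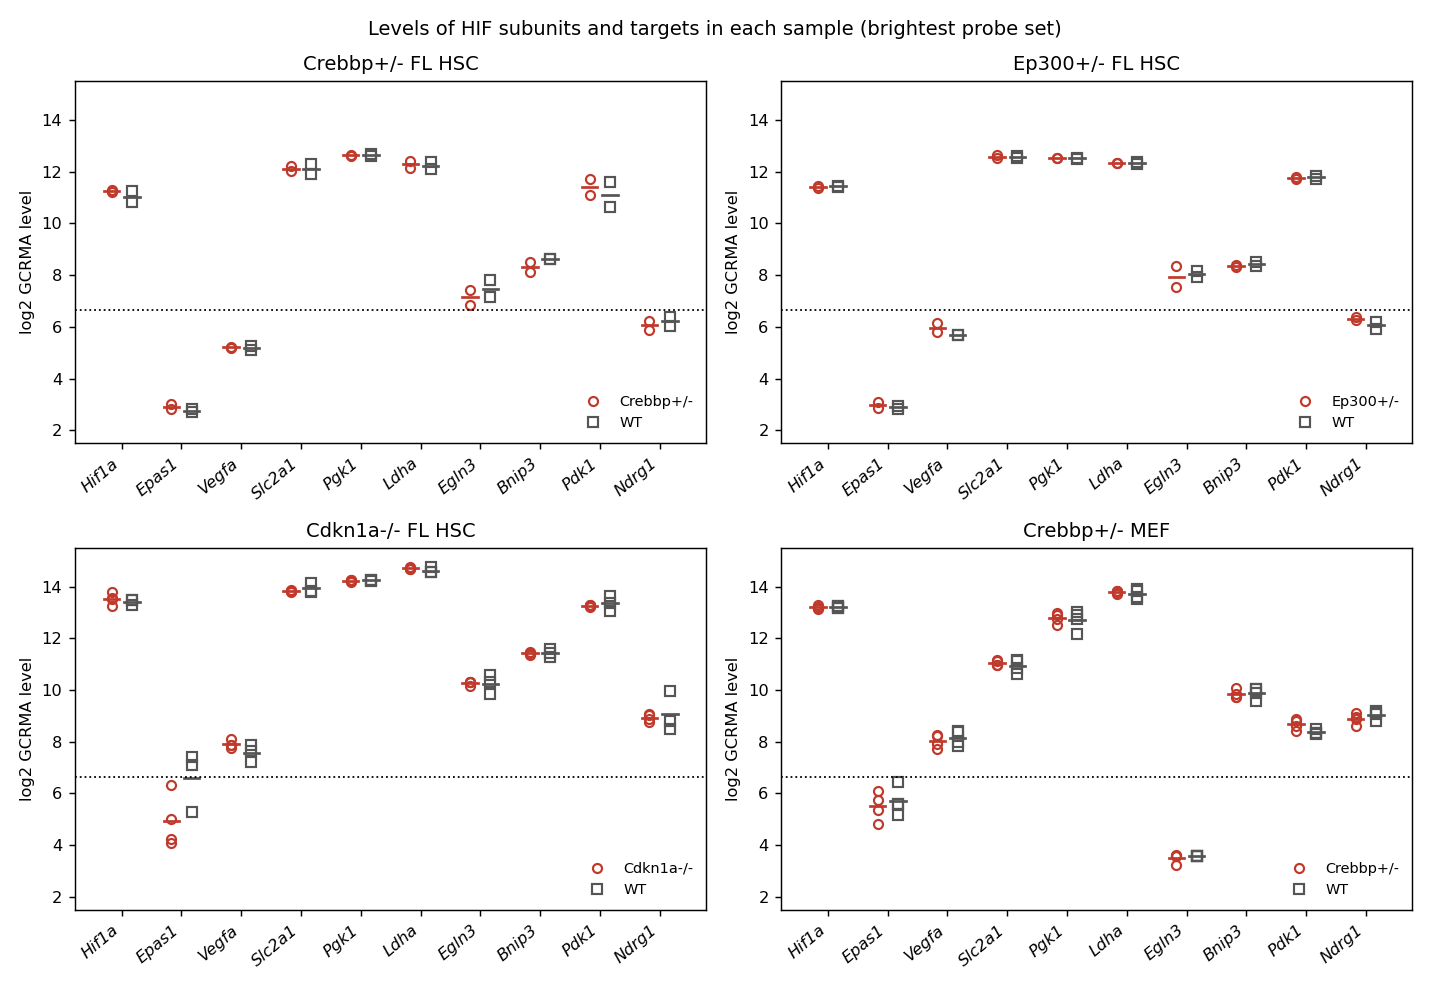
Log2 GCRMA level (vertical axis) of the 10 genes (horizontal axis) at the brightest probe set of each in the 4 experiments; heights of different genes or experiments are not comparable. Each circle is a mutant sample and each square a WT sample, short lines are group means, and the dotted line is the minimum of 6.64. *Pgk1* and *Ldha* averaged 12.62 and 12.28 in *Crebbp*+/- FL HSCs, against 12.64 and 12.23 in WT, while *Epas1* read at most 3.11 in the *Crebbp* and *Ep300* experiments.

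No member was called in any experiment. A call was an adjusted p under 0.05 (limma, Benjamini-Hochberg over all tested probe sets) with a fold change over 1.5. Limma called 0 of 17 member probe sets in *Crebbp*+/- FL HSCs, where 0.383% of all 13332 tested were called, and 0 of 17 in *Ep300*+/- FL HSCs, where 0% were. It called 0 of 22 in *Cdkn1a*-/- FL HSCs, where 0.405% of 20962 were called, and 0 of 20 in *Crebbp*+/- MEFs, where 0% of 15502 were. At an unadjusted p under 0.05 the members numbered 1 of 17 in *Crebbp*+/- FL HSCs (24.0% of all tested), 0 of 17 in *Ep300*+/- FL HSCs (4.28%), 0 of 22 in *Cdkn1a*-/- FL HSCs (7.29%) and 4 of 20 in *Crebbp*+/- MEFs (6.64%), and 0 of these also passed the fold change. Of the member probe sets, 9 were higher and 8 lower in *Crebbp*+/-, 10 and 7 in *Ep300*+/-, 10 and 12 in *Cdkn1a*-/- FL HSCs, and 10 and 10 in MEFs. Over all tested probe sets 57.7%, 45.1%, 62.2% and 57.9% were higher in these experiments. Several member probe sets read the same gene. The median log2 changes of the member probe sets were 0.01, 0.01, -0.02 and 0.01, against 0.05, -0.02, 0.05 and 0.02 over all tested probe sets.

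A missing call does not show equality, so the intervals are given as well. The 95% interval of the log2 change lay wholly within 1.5-fold in either direction for 10 of 17 members in *Crebbp*+/- FL HSCs (54.1% of all tested), 16 of 17 in *Ep300*+/- (73.4%), 12 of 22 in *Cdkn1a*-/- (51.5%) and 18 of 20 in *Crebbp*+/- MEFs (84.2%). Groups did not overlap for 2 members in *Crebbp*+/- FL HSCs, where 28.2% of all tested probe sets did not, and for 4 in *Ep300*+/-, where 32.7% did not. They overlapped for every tested member in *Cdkn1a*-/- FL HSCs and in *Crebbp*+/- MEFs, where 7.88% and 3.57% of all tested did not. Between the 2 arrays of a sample in the *Crebbp* and *Ep300* experiments, member probe sets differed by a median of 0.16 and at most 1.15 on the log2 scale.

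**Figure D2:**
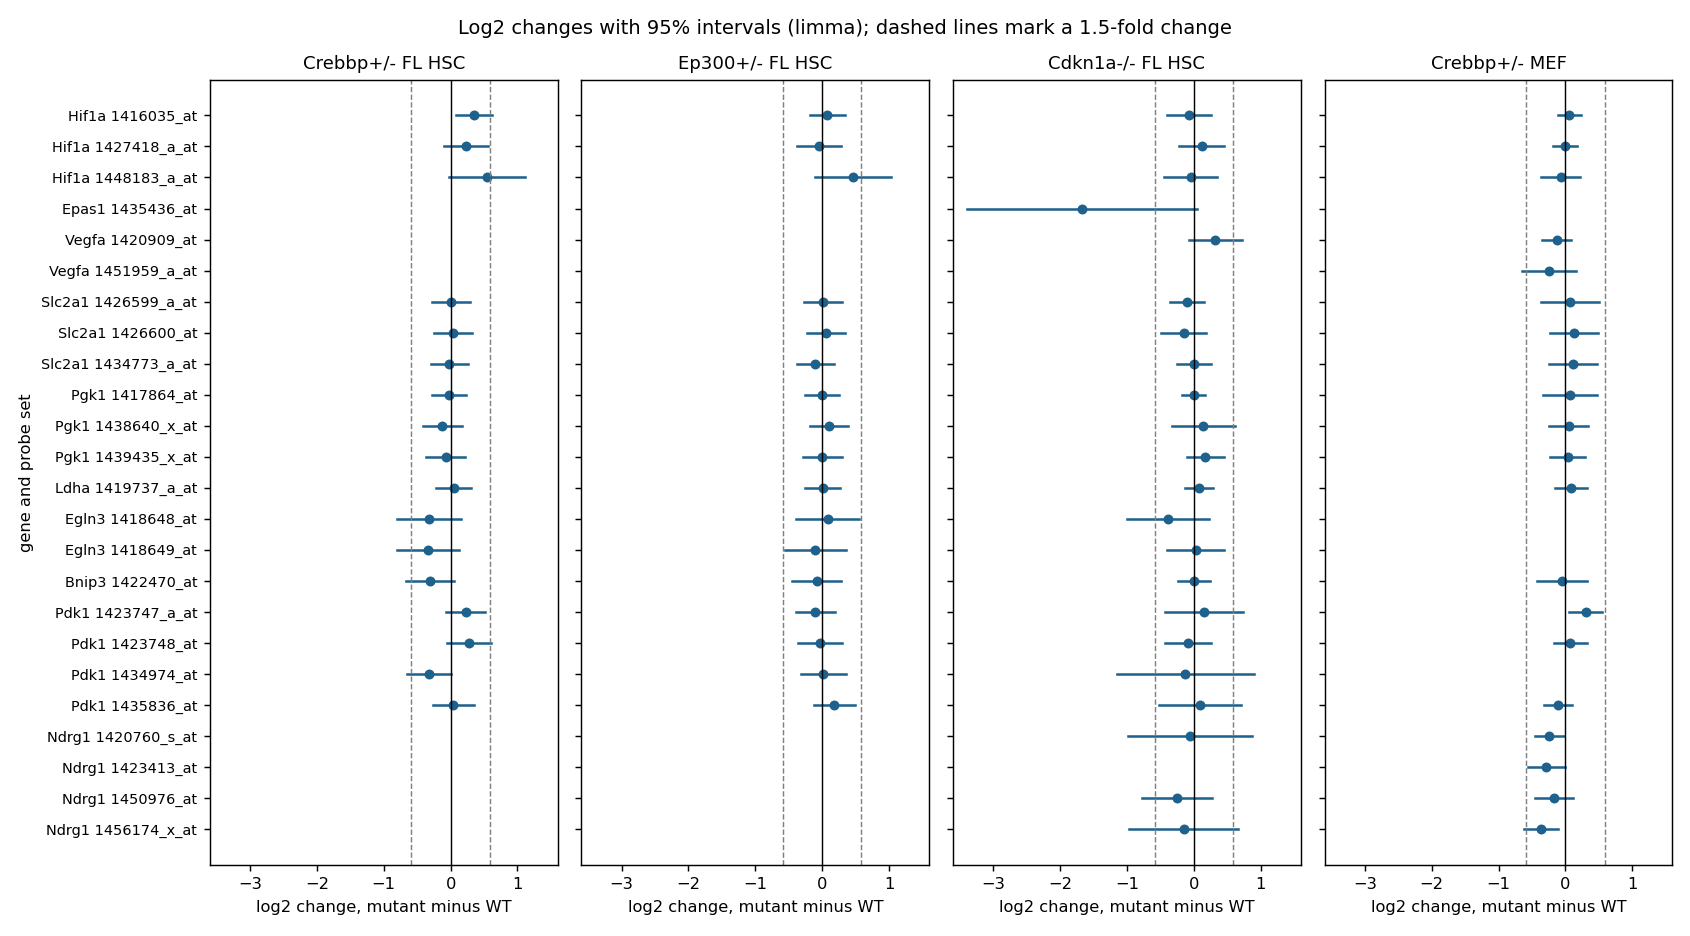
Log2 change, mutant minus WT (horizontal axis), of each tested member probe set (vertical axis) with its 95% interval from limma, in the 4 experiments. Dashed lines mark 1.5-fold changes, and rows are empty where a probe set stayed below the minimum. Most points lie close to 0, and the widest interval is that of *Epas1* in *Cdkn1a*-/- FL HSCs.

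*Hif1a*, the broadly expressed alpha subunit, was measured in every sample of all 4 experiments. At its brightest probe set (1427418_a_at) the level was 11.29 and 11.21 in *Crebbp*+/- FL HSCs, against 11.23 and 10.82 in WT. The groups overlapped, and the log2 change was 0.23 (standard error 0.13, adjusted p = 0.34 from limma). A dimmer probe set (1416035_at) read 10.59 and 10.61 in *Crebbp*+/- against 10.29 and 10.20 in WT samples, which did not overlap, a change of 0.35 (95% interval 0.08 to 0.62, adjusted p = 0.14). The remaining tested probe set (1448183_a_at) read 7.87 and 6.90 in *Crebbp*+/- against 7.15 and 6.54 in WT samples, a change of 0.54 (-0.03 to 1.11). *Hif1a* was thus higher in 2 of 2 pairs at all 3 tested probe sets, without a call at any of them. A pair, here and below, is the mutant and WT FL HSC sample of the same number. The methods used paired tests, but the labels do not say which samples belong together. *Crebbp*+/- sample 2 lay below WT sample 1 at 1427418_a_at (11.21 against 11.23) and 1448183_a_at (6.90 against 7.15). Matched the other way, those probe sets would not be higher in both pairs. The share of all tested probe sets that agreed in 2 of 2 pairs was not counted. With a pair left out, the change at the brightest was 0.06 or 0.40. Beside the *Crebbp* FL HSC values, the summed linear level of 4 megakaryocyte markers was 64.2 and 84.4 in *Crebbp*+/- (0 at the minimum) and 137.6 and 140.4 in WT samples (1 at the minimum). That of 6 fetal hepatocyte markers was 314 and 463 in *Crebbp*+/- (1 and 2 at the minimum), and in WT samples 52.6 and 885 (0 and 4). Their part in the changes was not tested.

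In *Ep300*+/- FL HSCs the brightest *Hif1a* probe set read 11.43 and 11.36, against 11.42 and 11.46 in WT. The changes at the 3 probe sets were -0.04, 0.08 and 0.46, the last at 1448183_a_at, where the levels were 8.27 and 7.83 in *Ep300*+/- and 7.41 and 7.76 in WT samples (standard error 0.22, adjusted p = 1.00). These groups did not overlap, but the gap was narrow. The *Cdkn1a*-/- FL HSCs read 13.56, 13.24, 13.77 and 13.53, against 13.46, 13.47 and 13.29 in WT, a change of 0.12 (-0.21 to 0.45). In *Crebbp*+/- MEFs it read 13.14, 13.30, 13.22 and 13.15, against 13.26, 13.18, 13.23 and 13.18 in WT, a change of -0.01 (-0.19 to 0.17). The MEF samples of both genotypes lay within the same narrow range. Its probe set 1431981_at stayed below the minimum in all 4 experiments.

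*Epas1*, the alpha subunit best known from endothelium and from erythropoietin-producing cells, was below the minimum in all samples but 2. These were *Cdkn1a* WT sample 1 and WT sample 3. At 1435436_at the level was 6.34, 4.24, 5.03 and 4.07 in *Cdkn1a*-/- FL HSCs, against 7.39, 5.29 and 7.09 in WT. The groups overlapped, since null sample 1 lay above WT sample 2. The log2 change was -1.67 (standard error 0.72, 95% interval -3.39 to 0.05, adjusted p = 0.69), and -1.42 (standard error 0.83) without WT sample 3. The probe set was tested because of its 2 high WT samples, and both group means lay below the minimum (4.92 ± 1.03 in nulls, SD, n = 4, and 6.59 ± 1.14 in WT, SD, n = 3), so the size of the change depends on the background. Elsewhere the 2 *Epas1* probe sets read at most 3.11 in *Crebbp* and *Ep300* FL HSCs. In MEFs 1435436_at read 5.76, 5.34, 4.84 and 6.09 in *Crebbp*+/- against 6.45, 5.61, 5.19 and 5.61 in WT samples.

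*Egln3*, a HIF prolyl hydroxylase that is itself a HIF target and so part of a feedback, was measured in FL HSCs only. At 1418649_at it read 6.85 and 7.43 in *Crebbp*+/- samples, against 7.14 and 7.82 in WT, and both pairs were lower. The log2 change was -0.34 (-0.80 to 0.12, adjusted p = 0.32 from limma). Its other probe set, 1418648_at, lay near the minimum, which only 1 WT sample of this experiment reached. It read 6.25 and 6.30 in *Crebbp*+/- against 6.25 and 6.95 in WT (-0.32, -0.80 to 0.15). In *Ep300*+/- FL HSCs 1418649_at read 8.36 and 7.52, against 8.14 and 7.94 in WT, a change of -0.10 with the pairs in opposite directions. Levels in *Cdkn1a*-/- FL HSCs were 10.16, 10.29, 10.31 and 10.31, against 10.31, 10.58 and 9.83 in WT, a change of 0.03. There the second probe set had a log2 change of -0.39 (-0.999 to 0.221), which was -0.08 (-0.40 to 0.25) without WT sample 3. The 2 probe sets of *Egln3* placed WT sample 3 on opposite sides of the other samples: it was the lowest at 1418649_at and, with 9.68 against 8.47 to 8.88 in the rest, the highest at 1418648_at.

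*Slc2a1*, which encodes the glucose transporter GLUT1, showed no difference larger than the spread of its samples at its brightest probe set in any of the 4 experiments. At 1426599_a_at it read 12.21 and 12.01 in *Crebbp*+/- against 12.31 and 11.91 in WT FL HSCs, a log2 change of 0.01 (-0.28 to 0.29). It read 12.63 and 12.53 in *Ep300*+/- against 12.60 and 12.54 in WT FL HSCs, a change of 0.01 (-0.28 to 0.29). Both intervals lie inside 1.5-fold. It read 13.85, 13.84, 13.83 and 13.77 in *Cdkn1a*-/- FL HSCs, against 13.80, 13.82 and 14.15 in WT. The change of -0.10 (-0.36 to 0.16) came with WT sample 3, and it was 0.01 (-0.18 to 0.20) without that sample. In MEFs the brightest probe set was 1434773_a_at, which read 11.16, 10.96, 11.14 and 10.97 in *Crebbp*+/- against 10.86, 11.13, 10.64 and 11.16 in WT samples, a change of 0.11 (-0.25 to 0.47). All 3 *Slc2a1* probe sets were higher in *Crebbp*+/- MEFs in litters 1 and 3 and lower in litters 2 and 4. This order of litters, picked out after the values were seen, was held by 6 of the 20 tested members and by 11.3% of all tested probe sets. In *Ep300*+/- FL HSCs the groups of the dimmer probe sets did not overlap, but the 2 differed in direction (0.06 at 1426600_at and -0.10 at 1434773_a_at).

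*Pgk1*, the phosphoglycerate kinase whose promoter is shown above, had the narrowest intervals of the FL HSC members. At 1417864_at it read 12.59 and 12.66 in *Crebbp*+/- against 12.61 and 12.68 in WT FL HSCs, a change of -0.02 (-0.28 to 0.24). It read 12.51 and 12.51 in *Ep300*+/- against 12.48 and 12.54 in WT FL HSCs, a change of 0.00 (-0.26 to 0.26). In *Cdkn1a*-/- FL HSCs it read 14.26, 14.26, 14.17 and 14.23, against 14.25, 14.25 and 14.22 in WT, a change of 0.00 (-0.18 to 0.17). These FL HSC groups interleaved. In MEFs the same probe set spread more widely, with 12.74, 12.996, 12.92 and 12.51 in *Crebbp*+/- against 12.18, 13.03, 12.76 and 12.91 in WT samples, a change of 0.07 (-0.33 to 0.47). The 2 other *Pgk1* probe sets had log2 changes of -0.12 and -0.07 in *Crebbp*+/-, 0.10 and 0.00 in *Ep300*+/-, 0.14 and 0.17 in *Cdkn1a*-/- FL HSCs, and 0.05 and 0.03 in *Crebbp*+/- MEFs.

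*Ldha*, the lactate dehydrogenase subunit that turns pyruvate into lactate, has a single probe set. It read 12.15 and 12.42 in *Crebbp*+/- against 12.11 and 12.36 in WT FL HSCs, a change of 0.05 (-0.21 to 0.31). It read 12.33 and 12.35 in *Ep300*+/- against 12.36 and 12.30 in WT FL HSCs, a change of 0.01 (-0.26 to 0.27). In both experiments the interval excluded a 1.5-fold change. The *Cdkn1a*-/- FL HSCs read 14.74, 14.71, 14.68 and 14.68, against 14.55, 14.76 and 14.55 in WT, a change of 0.08 (-0.13 to 0.29). In MEFs it read 13.80, 13.84, 13.81 and 13.70 in *Crebbp*+/- against 13.53, 13.89, 13.58 and 13.83 in WT samples, a change of 0.08 (-0.16 to 0.32), again higher in litters 1 and 3 and lower in litters 2 and 4.

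*Pdk1*, a pyruvate dehydrogenase kinase, had probe sets that disagreed. In *Crebbp*+/- FL HSCs its brightest, 1423748_at, read 11.71 and 11.08, against 11.60 and 10.62 in WT, a log2 change of 0.28 (-0.05 to 0.61, adjusted p = 0.26 from limma, and 0.11 or 0.46 with a pair left out), and 1423747_a_at had a log2 change of 0.23, both higher in 2 of 2 pairs. Another probe set, 1434974_at, was lower in 2 of 2 pairs, with 8.59 and 8.19 in *Crebbp*+/- against 9.02 and 8.41 in WT samples (change -0.32, -0.66 to 0.01), and 1435836_at had a log2 change of 0.04. The direction of *Pdk1* in these cells therefore depends on the probe set. In *Ep300*+/- FL HSCs 1423748_at read 11.70 and 11.79, against 11.72 and 11.84 in WT, a change of -0.03 (-0.36 to 0.29), and 1435836_at read 7.55 and 7.62 against 7.28 and 7.53 in WT, without overlap (0.18, -0.12 to 0.48). Levels in *Cdkn1a*-/- FL HSCs were 13.23, 13.23, 13.27 and 13.31, against 13.65, 13.35 and 13.04 in WT, a change of -0.09 (-0.44 to 0.26), and -0.24 (-0.51 to 0.02) without WT sample 3. At 1434974_at the change was -0.13 with all samples and -0.65 (-1.24 to -0.06, adjusted p = 0.71 from limma) without that sample. At 1423748_at the nulls were less scattered (SD 0.04, n = 4) than the WT samples (SD 0.30, n = 3).

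In MEFs the brightest *Pdk1* probe set was 1423747_a_at. It read 8.87, 8.61, 8.82 and 8.40 in *Crebbp*+/- against 8.31, 8.33, 8.47 and 8.35 in WT samples. It was higher in 4 of 4 litters although the groups overlapped, with a change of 0.30 (0.06 to 0.55, adjusted p = 0.69 from limma). Over all tested probe sets 10.2% were higher in all 4 litters and 6.25% lower in all 4, against 1 and 3 of the 20 members. The other tested *Pdk1* probe sets had log2 changes of 0.08 and -0.11, and 1434974_at stayed below the minimum in MEFs.

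*Bnip3*, a mitochondrial protein of mitophagy and cell death, was lower in both pairs of *Crebbp*+/- FL HSCs. It read 8.13 and 8.50 in *Crebbp*+/- samples, against 8.62 and 8.63 in WT. The groups did not overlap, and the log2 change was -0.31 (-0.67 to 0.05, adjusted p = 0.26 from limma), or -0.49 and -0.13 with a pair left out. It read 8.30 and 8.40 in *Ep300*+/- against 8.51 and 8.35 in WT FL HSCs, a change of -0.08. In *Cdkn1a*-/- FL HSCs it read 11.47, 11.42, 11.35 and 11.42, against 11.41, 11.58 and 11.26 in WT, a change of 0.00 (-0.23 to 0.24). In MEFs it read 9.72, 9.74, 10.07 and 9.83 in *Crebbp*+/- against 10.05, 9.87, 9.59 and 10.05 in WT samples, a change of -0.05 (-0.43 to 0.33). In MEFs it was lower in 3 of 4 litters and higher in litter 3.

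*Vegfa*, the angiogenic growth factor, was read above the minimum in 2 experiments. At 1420909_at it read 7.87, 7.88, 8.09 and 7.78 in *Cdkn1a*-/- FL HSCs, against 7.87, 7.65 and 7.23 in WT, a log2 change of 0.32 (-0.08 to 0.72, adjusted p = 0.72 from limma). WT sample 3 was the lowest, and without it the change was 0.15 (-0.16 to 0.45). In MEFs it read 7.90, 8.27, 8.21 and 7.71 in *Crebbp*+/- against 7.82, 8.38, 8.43 and 7.98 in WT samples, a change of -0.13 (-0.34 to 0.08), lower in 3 of 4 litters. Its other probe set had a log2 change of -0.25 (-0.65 to 0.16) in MEFs, with the same 3 litters lower. In *Crebbp* and *Ep300* FL HSCs *Vegfa* read at most 6.13, below the minimum.

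*Ndrg1*, a stress-response gene induced by hypoxia in many cells, held the 2 lowest log2 changes of the members in *Crebbp*+/- MEFs, at 2 of its 4 tested probe sets. Its brightest probe set there, 1450976_at, read 8.90, 8.95, 9.11 and 8.59 in *Crebbp*+/- against 8.81, 9.17, 9.13 and 9.09 in WT samples, a change of -0.17 (-0.45 to 0.12). At 1456174_x_at it read 8.49, 8.34, 8.85 and 8.43 in *Crebbp*+/- against 9.004, 8.86, 8.93 and 8.78 in WT samples. All 4 litters were lower there, by 0.52, 0.52, 0.07 and 0.34 on the log2 scale, but *Crebbp*+/- sample 3 lay above WT sample 4, so the groups overlapped. The change was -0.36 (-0.61 to -0.11, adjusted p = 0.63 from limma). The probe sets 1420760_s_at (-0.24, -0.46 to -0.02) and 1423413_at (-0.29, -0.57 to -0.01) were also lower in 4 of 4 litters. The 4 tested *Ndrg1* probe sets are annotated to the same gene and were read in the same samples, so they are not independent of each other. Where in the gene each of them lies was not available here. Beside these values, the summed linear level of 8 macrophage markers was 1849 to 2331 in *Crebbp*+/- and 2629 to 3353 in WT MEFs, with 3 to 5 and 2 to 6 of them at the minimum; its part in the result was not tested.

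In *Cdkn1a*-/- FL HSCs the brightest *Ndrg1* probe set, 1456174_x_at, read 8.76, 9.02, 9.06 and 8.87, against 8.80, 8.48 and 9.95 in WT, a change of -0.15 (-0.96 to 0.66). Without WT sample 3 it was 0.29 (-0.05 to 0.63), with the sign turned. At 1420760_s_at the change was -0.06 with all samples and 0.45 (0.14 to 0.77, adjusted p = 0.43) without that sample, at 7.59, 7.95, 7.73 and 7.92 in nulls against 7.36 and 7.32 in the 2 remaining WT samples. In *Crebbp* and *Ep300* FL HSCs *Ndrg1* read at most 6.40.

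**Figure D3:**
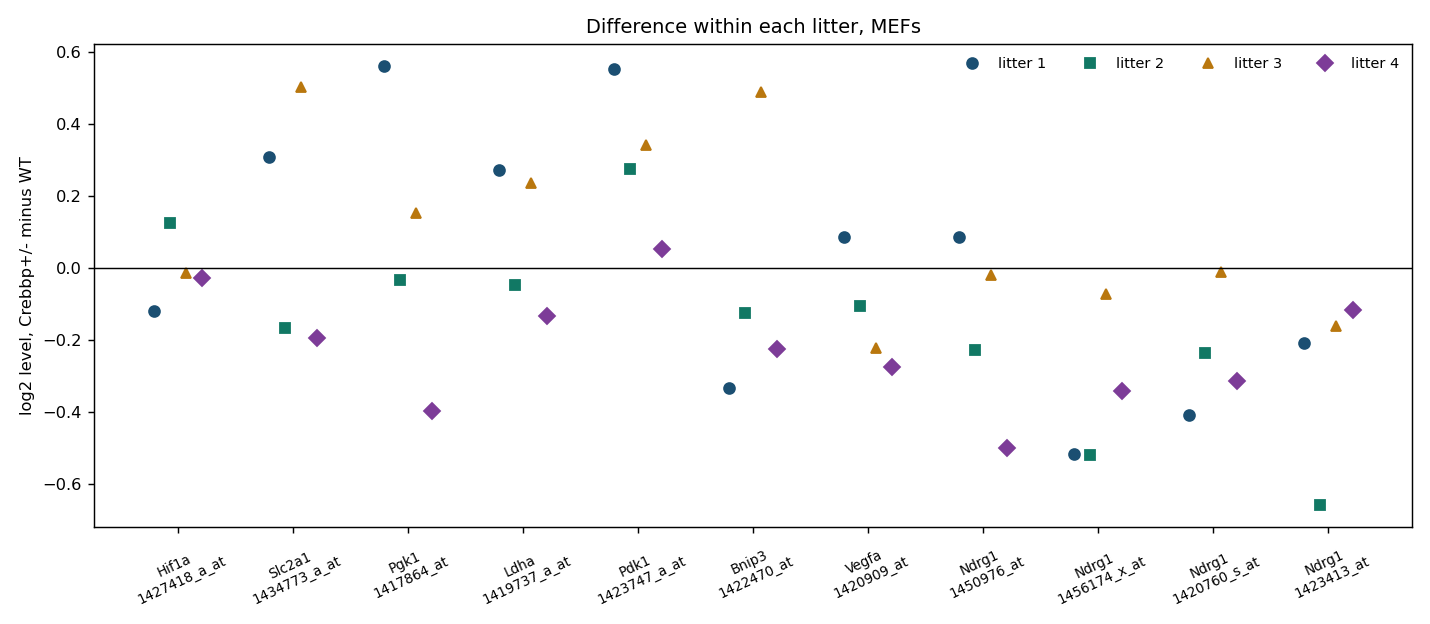
Log2 level of *Crebbp*+/- minus WT MEFs (vertical axis) within each of the 4 litters, for the brightest tested probe set of 8 genes and the 3 other tested *Ndrg1* probe sets (horizontal axis). The points of *Pdk1* all lie above 0 and those of 3 *Ndrg1* probe sets all below it, while *Slc2a1*, *Pgk1* and *Ldha* lie above 0 in litters 1 and 3 and below it in litters 2 and 4.

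WT sample 3 of the *Cdkn1a* experiment stood apart, and several of the above values rest on it. It held the highest or the lowest value of the 7 samples for 15 of the 22 tested member probe sets, being above the rest for 8 (all tested probe sets of *Slc2a1* and *Ndrg1*, and a probe set each of *Hif1a* and *Egln3*) and below the rest for 7 (*Pdk1*, *Bnip3*, *Vegfa* and the other probe set of *Egln3*). Over all tested probe sets it was above the rest for 18.5% and below for 39.3%. In this sample 6 of 6 fetal hepatocyte markers and 4 of 6 erythroid markers reached the minimum, with summed linear levels of 106830 and 10975. The nulls had 902 to 3675 for the hepatocyte list (3 to 5 of 6 at the minimum) and 36.5 to 64.7 for the erythroid list (0 of 6). WT samples 1 and 2 had 480 and 419 (1 of 6) for the hepatocyte list and 37.7 and 38.3 (0 of 6) for the erythroid list. Macrophage markers reached it for 7 of 8 in WT sample 3 and 1 of 8 in each other sample. Their part in the member values was not tested. Without this sample the median of the 22 members was 0.01, the range -1.42 to 0.45, and the smallest adjusted p 0.43, and 15 of 22 intervals lay within 1.5-fold.

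**Figure D4:**
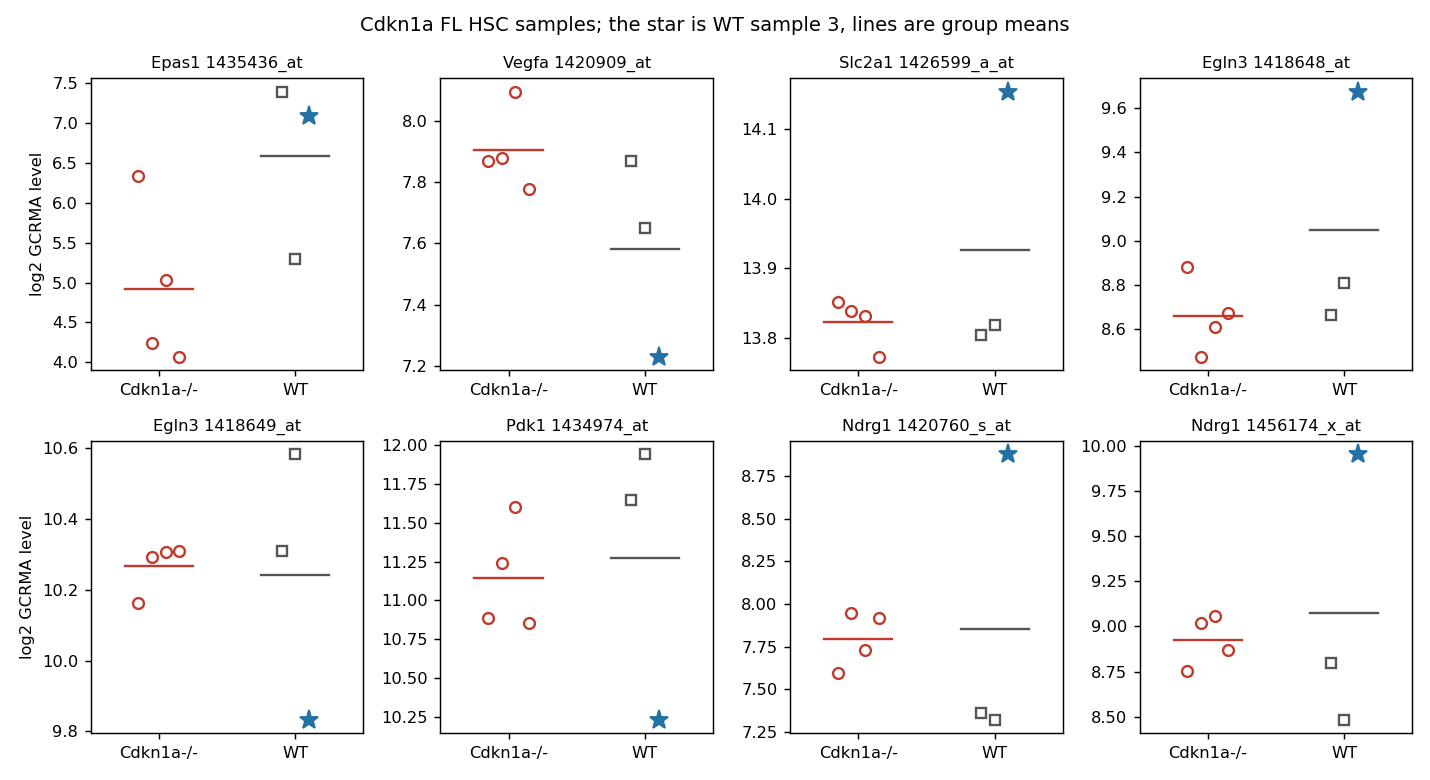
Log2 GCRMA level (vertical axis, a scale of its own in each panel) of 8 member probe sets in the 4 *Cdkn1a*-/- samples (circles, left) and the 3 WT samples (right; squares are samples 1 and 2, the star is sample 3), with group means as lines. The star lies outside the other samples in every panel but that of *Epas1*. The *Pdk1* and *Ndrg1* probe sets shown were picked because their change moved most without WT sample 3. *Hif1a*, *Pgk1*, *Ldha* and *Bnip3* are not drawn, so the panels do not stand for all tested members.

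Whether the loss of a *Crebbp* allele and of an *Ep300* allele differed at these genes was tested as the difference of the 2 log2 changes in the joint fit. Limma called 0 of 17 member probe sets, with 0% of all 13332 tested called (0 of 17 at an unadjusted p under 0.05, and 2025 of all tested). The differences ran from -0.40 at *Egln3* 1418648_at (-1.08 to 0.27), a probe set with 1 of 4 *Crebbp* experiment samples at the minimum, to 0.33 at *Pdk1* 1423747_a_at (-0.08 to 0.74, adjusted p = 0.40). *Hif1a* differed by 0.27 (-0.20 to 0.74) at its brightest probe set and *Bnip3* by -0.23 (-0.74 to 0.29). *Pgk1*, *Ldha* and *Slc2a1* differed by -0.02, 0.04 and 0.00 at their brightest probe sets. The interval lay within 1.5-fold for 7 of the 17. At the others it passed 1.5-fold, on a single side at most of them, so a difference of that size was not excluded there.

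The other genes of the pathway gave no call in any experiment. They were grouped in 5 lists, each gene being read at its brightest probe set. Of the HIF partners and oxygen sensors, which take in ARNT, the prolyl hydroxylases, the VHL complex and the coactivators, limma called 0 of 13 tested genes in *Crebbp*+/- and 0 of 13 in *Ep300*+/- FL HSCs, 0 of 14 in *Cdkn1a*-/- FL HSCs and 0 of 15 in *Crebbp*+/- MEFs (2, 0, 0 and 1 at an unadjusted p under 0.05). The smallest p in *Crebbp*+/- FL HSCs belonged to *Egln1*, the main HIF prolyl hydroxylase, with 9.54 and 9.17 against 9.004 and 8.58 in WT (log2 change 0.57, 0.29 to 0.84, adjusted p = 0.080). *Hif3a*, an alpha subunit whose short forms restrain HIF activity, read 8.18 and 8.28 in *Crebbp*+/- against 9.04 and 8.73 in WT samples (-0.66, -1.10 to -0.22, adjusted p = 0.11). Neither passed. *Hif3a* also had a log2 change of -0.48 in *Cdkn1a*-/- FL HSCs and *Os9*, which encodes a protein known to bind HIF1A, one of -0.37 (-0.08 without WT sample 3). In *Ep300*+/- FL HSCs the smallest p values belonged to *Egln2* (0.20) and the elongin *Elob* (-0.20).

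The coactivator genes themselves were read within this list. *Crebbp* at its brightest probe set read 9.48, 9.50, 9.42 and 9.38 in *Crebbp*+/- MEFs, against 10.34, 10.15, 10.31 and 10.15 in WT. The groups did not overlap and it was lower in 4 of 4 litters (-0.79, -0.97 to -0.61), yet its adjusted p was 0.42 over the whole array. In *Crebbp*+/- FL HSCs the same probe set read 11.95 and 11.66, against 12.07 and 11.41 in WT (0.07), and in *Ep300*+/- FL HSCs the brightest *Ep300* probe set read 9.46 and 9.47, against 9.53 and 9.60 in WT (-0.10). Neither FL HSC reading was called, and the heterozygous FL HSC samples are grouped by their labels. Of the 4 *Crebbp* probe sets only the brightest was read in each experiment. In MEFs *Crebbp* was the gene of the list at an unadjusted p under 0.05, and the next smallest p was 0.12, at *Elob* (0.13, -0.05 to 0.30).

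Among glycolytic genes other than the members, limma called 0 of 13 in *Crebbp*+/- and 0 of 13 in *Ep300*+/- FL HSCs, 0 of 16 in *Cdkn1a*-/- FL HSCs and 0 of 14 in MEFs (2, 0, 2 and 3 at an unadjusted p under 0.05). Of the 19 listed genes 16 had a probe set of their own. *Ldhb*, the heart-type lactate dehydrogenase subunit, read 8.46 and 8.80 in *Crebbp*+/- against 9.09 and 9.63 in WT FL HSCs (-0.73, -1.05 to -0.42, adjusted p = 0.069), which stands beside 0.05 for *Ldha*. *Pfkp*, a phosphofructokinase, had log2 changes of -0.32 in *Crebbp*+/-, 0.21 in *Ep300*+/- and -0.35 in *Cdkn1a*-/- FL HSCs, with adjusted p of 0.18, 1.00 and 0.66. The lactate exporter *Slc16a3* had a log2 change of -0.30 in *Ep300*+/- and -1.08 in *Cdkn1a*-/- FL HSCs, the second being -0.67 without WT sample 3. In MEFs 10 of the 14 were higher in *Crebbp*+/-, with a median of 0.13, against 57.9% higher and a median of 0.02 over all tested probe sets. The smallest p values there belonged to the hexokinase *Hk2* (0.42, 0.07 to 0.76, adjusted p = 0.70) and *Pfkp* (0.34, 0.07 to 0.61, adjusted p = 0.67), both higher in 4 of 4 litters.

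Of the other HIF targets, limma called 0 of 14 in each of *Crebbp*+/- and *Ep300*+/- FL HSCs, 0 of 16 in *Cdkn1a*-/- FL HSCs and 0 of 18 in MEFs (0, 0, 0 and 2 at an unadjusted p under 0.05). *P4ha1*, a collagen prolyl hydroxylase, had a log2 change of 0.50 in *Crebbp*+/- and 0.36 in *Ep300*+/- FL HSCs, higher in 2 of 2 pairs of each (in *Crebbp*+/- it passed through 1 sample at 6.67, with both means below the minimum), and the histone demethylase *Kdm3a* one of -0.25 in *Crebbp*+/-. *Higd1a* had a log2 change of -0.19 in *Ep300*+/-, and *Ddit4* and *Plod2* had changes of -0.46 and 0.66 in *Cdkn1a*-/- FL HSCs. *Plod2* passed through 1 null sample at 7.04 with both means below the minimum, so its size is not exact, and it was 0.44 without WT sample 3. In MEFs the peptide hormone *Adm* read 10.33, 9.92, 9.98 and 9.97 in *Crebbp*+/- against 10.46, 10.65, 10.30 and 10.69 in WT samples. It was lower in 4 of 4 litters, although *Crebbp*+/- sample 1 lay above WT sample 3 (-0.48, -0.79 to -0.16, adjusted p = 0.63). *Hmox1*, the heme oxygenase, was also lower in 4 of 4 litters (-0.24).

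The VEGF family was mostly below the minimum in FL HSCs, where 2 of 8 genes were tested in the *Crebbp*, 1 in the *Ep300* and 3 in the *Cdkn1a* experiment, and 5 were tested in MEFs, with 0 called (1, 0, 0 and 2 at an unadjusted p under 0.05). The lymphangiogenic *Vegfc* read 4.97 and 6.00 in *Crebbp*+/- against 5.89 and 6.74 in WT FL HSCs (-0.83, -1.11 to -0.56, adjusted p = 0.051), with both means below the minimum, so its size is not exact. In MEFs *Vegfc* read 7.09, 6.94, 7.19 and 6.77 in *Crebbp*+/- against 7.88, 7.26, 8.39 and 7.37 in WT samples (-0.73, -1.11 to -0.35, adjusted p = 0.55), with no overlap. *Vegfd* had a log2 change of -0.71 (-1.06 to -0.36) in MEFs, lower in 4 of 4 litters. In *Cdkn1a*-/- FL HSCs *Vegfc* had a log2 change of 0.50 and the coreceptor *Nrp1* one of -0.72, and these were 0.20 and -0.27 without WT sample 3. *Nrp1* had a log2 change of 0.29 in *Crebbp*+/- and 0.07 in *Ep300*+/- FL HSCs, again with all means below the minimum.

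Of the 8 paralogs of the members, 2, 2, 4 and 4 were tested in the 4 experiments, with 0 called and 0 at an unadjusted p under 0.05. *Pdk3* had log2 changes of 0.27, -0.04 and 0.09 in *Crebbp*+/- and *Ep300*+/- FL HSCs and in MEFs, and *Ndrg3* gave 0.14, -0.12 and 0.12. In *Cdkn1a*-/- FL HSCs *Pdk2* had a log2 change of -0.70 and *Ndrg4* one of -1.25. For *Ndrg4* 1 WT sample was at 9.05, and the null samples and the other WT samples lay between 5.51 and 6.89. All of these are log2 changes without a call.

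**Figure D5:**
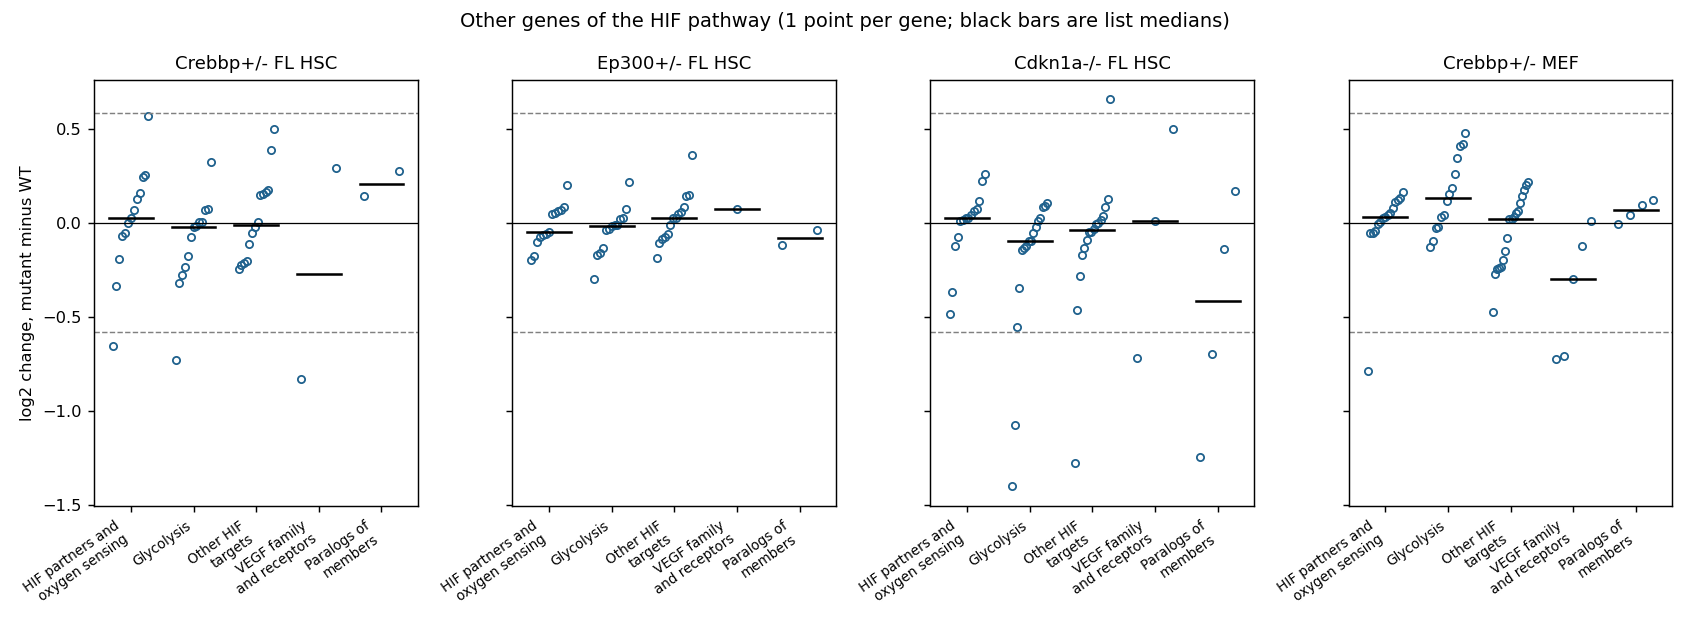
Log2 change, mutant minus WT (vertical axis), of each tested gene of the 5 pathway lists (horizontal axis) in the 4 experiments. Each circle is a gene at its brightest probe set, black bars are list medians and dashed lines mark 1.5-fold changes. The list medians of the first 3 lists lie between -0.10 and 0.13, and no gene shown was called.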

How the data were processed

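The deposited log2 values are those of the authors' GCRMA run, which corrects background, applies quantile normalization and summarizes the probes of a probe set, here within each group of arrays. The labels give 12 ng amplification for MEFs as well, whereas the methods state that MEF RNA was not amplified. From these values, 64 control probe sets were left out of 45101, the 2 technical arrays of a sample were averaged, and limma 3.58.1 in R 4.3.3 was run on those with at least 1 sample at log2(100). *Crebbp* and *Ep300* FL HSCs were fitted jointly with a block per pair of same-numbered samples, *Cdkn1a* FL HSCs without a block, and MEFs with a block per litter. Deviations of same-numbered samples from their group means had correlations of 0.712 and 0.384 in *Crebbp* and *Ep300* FL HSCs. In MEFs, by litter, the correlations were 0.186 to 0.461. In *Cdkn1a* FL HSCs, fitted without a block, they were -0.045 to 0.287, which overlaps the MEF range. The fit was tested on simulated data. The t-test of the methods (paired, but unpaired in *Cdkn1a* FL HSCs), other filters, scalings, blocks and left-out samples were tried as alternatives.

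The members and lists were chosen with earlier results of these data known. Every member was named at its brightest probe set (by mean level in the experiment), and its other probe sets were given by direction. From the lists, called genes and the 2 with the smallest p per list and experiment were named. Genes come from the platform annotation: 34945 probe sets have 1 symbol, 932 several and 9160 none, and listed genes without a probe set of their own were not analysed here. Intensities hold no depth, and precision rests on the number of biological samples and the spread between them. Where sorted cells were pooled, p-values rest on the spread between pools, which limma moderates with that of all tested probe sets. In the joint fit the *Crebbp* and *Ep300* experiments share this spread, with 2 residual degrees of freedom. A standard error, interval or p-value there is thus not set by the pools of its own experiment alone.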

Additional observations from a re-analysis of the deposited data

Results flagged for a closer look

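Over 62 groups of 4 samples examined at the tested member probe sets, 3 held a sample far from the others, and chance flags about 1 in 20 such groups. *Egln3* 1418649_at read 10.16 in *Cdkn1a*-/- FL HSC sample 1, the lowest, against 10.29 to 10.31 in the other nulls. *Vegfa* 1451959_a_at read 7.46 in *Crebbp*+/- MEF sample 4, the lowest, against 7.93 to 7.99 in the other *Crebbp*+/- MEFs. *Pdk1* 1435836_at read 6.41 in the same MEF sample, again the lowest, against 6.70 to 6.73 in the others.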

How the results depend on the processing

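Limma called 0 member probe sets in each experiment under every alternative that was run, including the replicate block added for *Cdkn1a* and the fits without a replicate block elsewhere (0 in each). The methods' t-test was run paired, except in *Cdkn1a* FL HSCs, where it was unpaired. It followed the methods' filters on intensity and interquartile range, without their filter on probe sets called Absent in all samples. It called 0 of 3 members in *Crebbp*+/- and 0 of 2 in *Cdkn1a*-/- FL HSCs with or without adjustment. In *Ep300*+/- FL HSCs and in MEFs it had 0 members to test. Over the whole array limma's calls ran from 0 to 877 in *Crebbp*+/- FL HSCs (51 in the reported fit) and 6 to 99 in *Cdkn1a*-/- FL HSCs (85), were 0 in each fit of *Ep300*+/- FL HSCs, and ran from 0 to 2 in *Crebbp*+/- MEFs (0). The methods' t-test at its unadjusted threshold called 199, 548, 11 and 61 in these, and 0, 141, 0 and 0 after Benjamini-Hochberg. At the brightest probe sets the sign of the log2 change turned in 5 of 78, 14 of 77, 16 of 130 and 5 of 80 recomputed values of *Crebbp*+/-, *Ep300*+/- and *Cdkn1a*-/- FL HSCs and MEFs, in each case for a change without a call. The cause was not tested.

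In *Crebbp*+/- FL HSCs *Slc2a1* gave -0.038 with median scaling, -0.014 with repeated quantile normalization and -0.021 with technical array 1 only, and -0.093 to 0.10 with a pair left out. *Ldha* gave -0.041 with technical array 1 only. In *Ep300*+/- FL HSCs *Pgk1* gave 0.0081 with median scaling and 0.028 with repeated quantile normalization. With technical array 1 only, *Ldha* gave -0.0010 and *Bnip3* 0.014. With technical array 2 only, *Hif1a* gave 0.067, *Slc2a1* -0.048, *Pgk1* 0.025 and *Egln3* 0.43. With a pair left out, the ranges in *Ep300*+/- FL HSCs were -0.10 to 0.015 for *Hif1a*, -0.014 to 0.028 for *Slc2a1*, -0.028 to 0.026 for *Pgk1*, -0.031 to 0.042 for *Ldha*, -0.42 to 0.22 for *Egln3* and -0.21 to 0.043 for *Bnip3*.

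In *Cdkn1a*-/- FL HSCs *Egln3* gave -0.0039 and *Bnip3* -0.030 with median scaling, and *Bnip3* -0.014 with repeated quantile normalization and -0.0017 with the replicate block. With a sample left out, the ranges were -0.16 to 0.012 for *Slc2a1*, -0.016 to 0.014 for *Pgk1*, -0.18 to 0.20 for *Egln3*, -0.077 to 0.080 for *Bnip3*, -0.24 to 0.061 for *Pdk1* and -0.45 to 0.29 for *Ndrg1*. Leaving out WT sample 3 gave the upper end for *Slc2a1* and *Ndrg1* and the lower end for the other 4. In MEFs, with a litter left out, the ranges were -0.054 to 0.027 for *Hif1a*, -0.019 to 0.21 for *Slc2a1*, -0.093 to 0.23 for *Pgk1* and -0.23 to 0.046 for *Bnip3*.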
